A study of Mus musculus with 12 samples.

Results

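Ecm1 and Adamtsl4 are adjacent genes on mouse chromosome 3 that encode secreted proteins of the extracellular matrix. They were chosen by their measured difference between genotypes, in a table of 9374 genes from RNA sequencing of blood neutrophils, because both had lower values in resting neutrophils of Hmgb1ΔMye mice than of wild-type mice. That difference is therefore given as a description, without a test. Of the 9374 genes in the table, these were 2.

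The study asked how gene expression in neutrophils, at rest and after an inflammatory stimulus, differs in mice of the Hmgb1ΔMye line. Female mice received saline or lipopolysaccharide (LPS, the endotoxin of Gram-negative bacteria, sensed through TLR4) at a dose of 0.5 mg/kg, and blood neutrophils were collected 16 hours later. There were 4 groups of 3 libraries: wild-type mice given saline (WT-Saline), wild-type mice given LPS (WT-LPS), Hmgb1ΔMye mice given saline (KO-Saline) and Hmgb1ΔMye mice given LPS (KO-LPS). All 12 libraries were from blood, from the cell type labelled neutrophil and from females. ΔMye is the usual name for a deletion in myeloid cells, which include monocytes and macrophages as well as neutrophils, and Hmgb1 encodes a DNA-bending nuclear protein that can act as a danger signal outside the cell. The labels name no Cre line, strain or age, and they do not state whether the 3 libraries of each group stand for 3 mice. The p-values thus measure the spread between these samples only, which may be technical.

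ECM1 (extracellular matrix protein 1) is a secreted glycoprotein of skin, vessel wall, liver and lymphoid tissue. It binds matrix proteins such as perlecan and fibulins, binds and inhibits the gelatinase MMP9, and in liver keeps latent TGF-beta from being activated. Loss of human ECM1 causes lipoid proteinosis, a disease of thickened skin and mucosa. ADAMTSL4 belongs to the ADAMTS-like proteins, which share the thrombospondin-type repeats of the ADAMTS proteases and lack the protease domain. It binds fibrillin-1 and promotes the assembly of microfibrils, the fibrils that also store latent TGF-beta. Loss of human ADAMTSL4 causes displacement of the eye lens.

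Both genes lie on the minus strand in the mm10 build. Ecm1 (NCBI Gene ID 13601) spans chr3:95734147-95739569, or 5.4 kb, with 10 transcripts and 2521 exon bases in the GENCODE M21 annotation. Adamtsl4 (NCBI Gene ID 229595) spans chr3:95676201-95687917, or 11.7 kb, with 5 transcripts and 4198 exon bases. Between them are 46.2 kb with 0 annotated genes of GENCODE M21. No exon of either gene overlapped an exon on the opposite strand in that annotation. The microRNA gene Mir7014 (chr3:95734911-95734973) lies within an annotated exon of Ecm1 on the same strand. In RefSeq, the last 42 bases of the Adamtsl4 span also belong to a long non-coding RNA, Gm52627, which is not among the genes of the table.

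The start regions of the genes are shown because the genes are transcribed in the same direction from promoters of different make-up. They are the RefSeq promoters in GRCm38, the build that mm10 also names, from 250 bases before to 50 bases after the start site, on the minus strand and 5′ to 3′. Capitals mark matches to the motifs searched. The Ecm1 window is chr3:95739520-95739819 and the Adamtsl4 window is chr3:95687868-95688167.
Ecm1: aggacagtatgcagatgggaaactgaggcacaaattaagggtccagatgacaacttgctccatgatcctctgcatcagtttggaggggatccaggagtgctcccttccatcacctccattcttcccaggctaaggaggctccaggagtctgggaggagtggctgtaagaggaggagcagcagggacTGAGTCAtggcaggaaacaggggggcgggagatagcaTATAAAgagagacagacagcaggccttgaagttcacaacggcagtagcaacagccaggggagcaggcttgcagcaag
Adamtsl4: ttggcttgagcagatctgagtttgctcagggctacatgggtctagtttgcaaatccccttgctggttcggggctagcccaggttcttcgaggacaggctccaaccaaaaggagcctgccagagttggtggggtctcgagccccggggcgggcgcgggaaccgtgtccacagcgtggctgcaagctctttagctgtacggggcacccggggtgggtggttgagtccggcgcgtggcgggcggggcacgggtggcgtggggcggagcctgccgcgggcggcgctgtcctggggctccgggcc

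The Ecm1 window had 54.7% G and C and 2 CpG dinucleotides. The Adamtsl4 window had 68.0% G and C and 24 CpG dinucleotides. Over 32851 RefSeq promoters of this length, the median was 52.7% (quartiles 45.7% and 61.7%) and 7 CpG dinucleotides (quartiles 3 and 20). By these measures the Adamtsl4 window lay above the upper quartile and the Ecm1 window lay below the lower quartile for CpG. Motifs were searched on both strands: the TATA box TATAAA, the AP-1 site TGANTCA, the GATA site AGATAA, the PU.1 core GAGGAA and the STAT palindrome TTCNNNGAA. The Ecm1 window held a TATAAA whose first base is at -27 from the start site and a TGAGTCA, a form of the AP-1 site, whose first base is at -64, both on the gene's strand and not overlapping. The Adamtsl4 window held none of the 5. TATAAA was present in 13.6% of all promoters, TGANTCA in 7.8%, AGATAA in 11.2%, GAGGAA in 28.3% and TTCNNNGAA in 8.3%. These matches describe letters, not binding.

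Library sizes, as total reads of the listed genes, ran from 399702 to 526757. Within groups, pairs of libraries differed by a chi-square of 2.94 to 4.55 per gene, except for the 2 pairs that include KO-LPS replicate 1, at 11.54 and 11.97, so no library was a copy of another and KO-LPS replicate 1 stood apart. The log2 differences of Ecm1 and Adamtsl4 that use it are given with and without it, as are counts of called list genes and neighbours where they changed. Correlations, likeness rankings, marker sums, group means in CPM and log2 differences of list genes include it. Hmgb1 had 8, 17 and 12 reads in the WT-Saline libraries, while WT-LPS had 14, 15 and 34. The KO-Saline libraries had 14, 10 and 25 Hmgb1 reads, and KO-LPS had 6, 30 and 16. Hmgb1 was not lower in the libraries of the deletion line (averaged log2 difference 0.16 ± 0.40, SE, limma adjusted p = 0.978). Which part of the gene and which strand this row counts is not given, so it cannot check the labels. These libraries are therefore called KO-labelled. All 12 neutrophil markers were measured, from S100a9 (rank 11 of all genes by reads) and Csf3r (rank 14) down to Ly6g (rank 2851). Of the 12, 10 were called with LPS, beside a share of 16.9% of all genes. Over the 3 WT libraries, Csf3r had 7642 reads in saline and 2563 with LPS, while Mmp8 had 394 and 1812. The strand on which reads were counted is not given in the sources used here. Of the rows listed, 167 of 230 long non-coding RNAs with exons opposite those of a measured coding gene had more reads than the coding gene (72.6%, exact 95% binomial interval 66.4% to 78.3%). Whether reads were counted on the opposite strand was not tested, and if they were, the values given for a gene would be those of RNA antisense to it.

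Ecm1 was a gene of moderate level, with 67.7 reads per library on average (rank 1347 of 9374). It had 63, 53 and 110 reads in the WT-Saline libraries and 113, 138 and 95 with LPS. In KO-Saline there were 13, 15 and 15 reads, and 35, 61 and 101 with LPS. Scaled to library size as counts per 1e6 reads (CPM), the levels were 152.5, 112.0 and 204.9 in WT-Saline, against 267.9, 291.0 and 176.5 in WT-LPS. They were 34.1, 32.5 and 36.5 CPM in KO-Saline, against 93.4, 150.5 and 216.6 CPM in KO-LPS. The 3 KO-Saline libraries lay close together and below every other library, while the other groups overlapped one another. The counting intervals (exact Poisson, 95%, counting error only) of the KO-Saline libraries reached at most 60.2 CPM, and those of the WT-Saline libraries began at 83.9 CPM or higher. The difference between these groups chose the gene, so nothing is read from the gap between the intervals. Ordered by mean, WT-LPS was highest (245 ± 60.5 CPM, SD, n = 3), followed by WT-Saline (156 ± 46.6), KO-LPS (153 ± 61.6) and KO-Saline (34.4 ± 1.98). WT-Saline and KO-LPS did not differ beyond their spread.

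Adamtsl4 was among the genes with the most reads, with 439.8 reads per library on average (rank 132 of 9374). Its levels were 1174.0, 1543.1 and 1536.6 CPM in WT-Saline and 1031.1, 980.7 and 630.0 CPM with LPS. They were 713.9, 746.4 and 629.9 CPM in KO-Saline, against 880.3, 787.1 and 1016.3 CPM in KO-LPS. The WT-Saline libraries were above all other libraries. By mean the order was WT-Saline (1420 ± 211 CPM, SD, n = 3), KO-LPS (895 ± 115), WT-LPS (881 ± 218) and KO-Saline (697 ± 60.1). The WT-LPS libraries overlapped those of both KO-labelled groups, and every KO-LPS library was above every KO-Saline library.

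**Figure D1:**
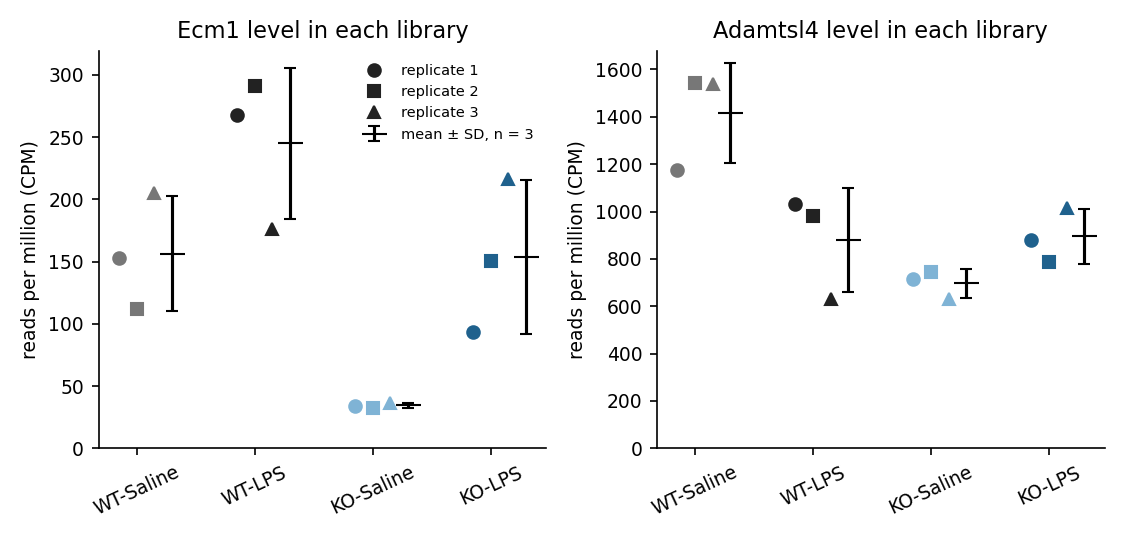
Levels of Ecm1 (left) and Adamtsl4 (right) in CPM in each of the 12 libraries, with the mean and SD of each group of 3 (bars). For Ecm1 the KO-Saline libraries, at 32.5 to 36.5 CPM, lie below all others, and for Adamtsl4 the WT-Saline libraries, at 1174.0 to 1543.1 CPM, lie above all others.

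Per kilobase of exon, which allows the levels of the 2 genes to be compared, Adamtsl4 exceeded Ecm1 in every library. The Adamtsl4 level was 338 ± 50.3 CPM per kb in WT-Saline, against 62.1 ± 18.5 for Ecm1 (SD, n = 3). In KO-Saline it was 166 ± 14.3, against 13.6 ± 0.786. The ratio of Adamtsl4 to Ecm1 per length was 4.62, 8.27 and 4.50 in WT-Saline, against 2.31, 2.02 and 2.14 with LPS. It was 12.56, 13.77 and 10.37 in KO-Saline, against 5.66, 3.14 and 2.82 with LPS. The ratio was highest in KO-Saline and lowest in WT-LPS, with no overlap between either of these groups and any other. Across the 12 libraries the log2 levels of the 2 genes had a Pearson correlation of 0.509, and it was -0.331 over the 6 WT and 0.828 over the 6 KO-labelled libraries, a description over libraries that share their groups and the scaling of the table.

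The response to LPS, averaged over the genotypes, is a comparison that the choice of the genes did not use. Ecm1 rose with LPS by 1.35 ± 0.24 on the log2 scale (SE), a 2.54-fold increase (limma, adjusted p = 0.000128). Without KO-LPS replicate 1 the log2 difference was 1.50 (limma, adjusted p = 1.1e-06). Leaving out each library in turn gave adjusted p-values up to 0.00104 by limma. Adamtsl4 had an averaged log2 difference of -0.18 ± 0.15, which did not pass the threshold (limma, adjusted p = 0.482, and 0.399 without KO-LPS replicate 1). So 1 of the 2 genes was called, where 16.9% of all 9374 genes were (924 higher and 659 lower).

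Within the genotypes the values are given as a description. Ecm1 differed between LPS and saline by 0.65 ± 0.33 log2 in WT libraries, where the groups overlapped, and by 2.04 ± 0.33 in KO-labelled libraries, where every LPS library was above every saline library. Adamtsl4 differed by -0.71 ± 0.22 in WT libraries, with every LPS library below every saline library. In KO-labelled libraries it differed by 0.36 ± 0.22, with every LPS library above every saline library. The KO-labelled values were 2.35 for Ecm1 and 0.36 for Adamtsl4 without KO-LPS replicate 1. For both genes the KO-LPS libraries were thus all above the KO-Saline libraries, which held for 10.8% of all genes. The Adamtsl4 arrangement, lower with LPS in all WT libraries and higher in all KO-labelled libraries, held for 19 of 9374 genes (0.203%). Both arrangements use the saline values that chose the genes, so nothing is read from either share. In blood neutrophils measured in bulk, fewer cells of a type and less RNA per cell cannot be told apart.

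Some markers of other cells also differed with LPS, and their part in these values was not tested. The summed level of the 3 platelet markers measured of 8 was 523 to 779 CPM in WT-Saline against 161 to 255 in WT-LPS, and 651 to 837 in KO-Saline against 217 to 496 in KO-LPS. The 5 dendritic cell markers measured of 8 summed to 109 to 214 CPM in WT-Saline against 42.7 to 64.0 in WT-LPS, and to 58.4 to 115 in KO-Saline against 29.6 to 104 in KO-LPS. Of these 5, 1 was called with LPS, beside a share of 16.9% of all genes. Over the 3 WT libraries, Clec9a had 174 reads in saline and 0 with LPS, Cd209a 38 and 16, and Xcr1 26 and 19. Zbtb46 had 5 and 16 reads there, and Bst2 had 2 and 20. In KO-labelled libraries Clec9a had 62 and 25 reads. The only B cell marker measured of 6 was Cd79a. Its level was 9.68 to 29.6 CPM in WT-Saline and 101 to 134 in WT-LPS. In KO-Saline it was 7.30 to 28.9, against 34.7 to 104 in KO-LPS. The 4 monocyte and macrophage markers measured of 9 summed to 353 to 460 CPM in WT-Saline against 496 to 640 in WT-LPS, without overlap, and to 391 to 438 in KO-Saline against 349 to 540 in KO-LPS. Of these 4, Ly6c2 rose with LPS by 2.43 ± 0.32 log2 averaged over genotypes (limma, adjusted p = 2.78e-06), while Csf1r and Apoe fell and Adgre1 did not pass. The summed level of the 2 T and NK cell markers measured of 10 overlapped between saline and LPS in both genotypes. Of the 2 markers, 0 were called, beside the same share of 16.9%. Over the 3 WT libraries, Tcf7 had 43 reads in saline and 5 with LPS, and Cd3d had 153 and 178. In KO-labelled libraries they had 15 and 15, and 123 and 92. Endothelial cells and fibroblasts make much of the extracellular matrix of tissues. Of their 8 markers, 2 were measured, the endothelial markers Pecam1 and Tek, with a sum of at most 24.2 CPM in any library. The fibroblast markers listed were not among the genes of the table, so a part of fibroblasts could not be examined.

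In saline the KO-labelled libraries were below the WT libraries for both genes without overlap, as for 6.19% of all genes. The log2 difference of Ecm1 was -2.11 ± 0.33 (SE), a level 4.30-fold lower. That of Adamtsl4 was -1.02 ± 0.22, or 2.02-fold lower. Among the 1609 genes whose mean log2 value was at or above that of Ecm1, the Ecm1 difference was the largest in size. Among the 135 genes at or above the mean log2 value of Adamtsl4, the Adamtsl4 difference was the 3rd largest in size and the 2nd largest fall. These differences chose the genes, so nothing is read from them. By limma, 1 of 9374 genes was called in this comparison (0.0107%), and an unadjusted p under 0.05 was found for 643.

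**Figure D2:**
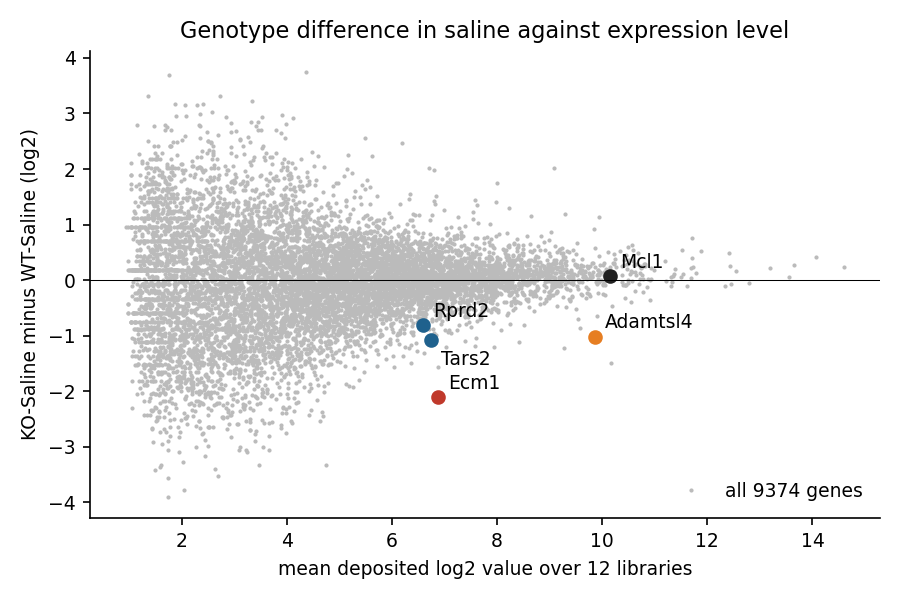
Difference between KO-Saline and WT-Saline (log2, vertical) against the mean deposited log2 value over 12 libraries (horizontal) for all 9374 genes (grey). Marked are Ecm1 at -2.11, Adamtsl4 at -1.02, Tars2 at -1.07, Rprd2 at -0.81 and Mcl1, the next gene beyond Adamtsl4, at 0.07. Ecm1 and Adamtsl4 were chosen by this difference.

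Under LPS the genotype groups overlapped for both genes. The Ecm1 difference was -0.72 ± 0.33 log2 (SE), and -0.41 without KO-LPS replicate 1, which was the lowest Ecm1 library of its group. The Adamtsl4 difference was 0.05 ± 0.22, and 0.06 without that library. By limma, 0 of 9374 genes were called in LPS (0.0%), with 471 at an unadjusted p under 0.05. Averaged over treatments, Ecm1 differed by -1.41 ± 0.24 and Adamtsl4 by -0.48 ± 0.15, and 1 of 9374 genes was called (0.0107%), with 530 at an unadjusted p under 0.05. The difference between the genotype differences in LPS and in saline was 1.39 ± 0.47 log2 for Ecm1 and 1.06 ± 0.30 for Adamtsl4, given without a test. This value was 1.70 for Ecm1 and 1.07 for Adamtsl4 without KO-LPS replicate 1, and the averaged differences were then -1.26 and -0.48. The summed neutrophil markers were at 18800 to 19100 CPM in KO-Saline and 13800 to 18300 in WT-Saline, without overlap. Taken singly, 5 of the 12 were higher and 1 was lower in KO-Saline without overlap, and the rest overlapped. Of all genes, 6.19% were lower in this way, and the share that were higher was not computed, so nothing is read from these counts. Between genotypes, 0 markers of any list were called. Their part in the Ecm1 and Adamtsl4 differences was not tested.

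The genes around the pair were compared between genotypes because they share its chromosome region. The table held 28 genes within 500 kb. By limma, 0 of the 28 were called between genotypes in saline, in LPS or averaged, with 3, 2 and 4 at an unadjusted p under 0.05. Their median log2 difference in saline was 0.08, beside -0.02 over all genes. In LPS it was -0.31, beside -0.01. All KO-Saline libraries were below all WT-Saline libraries for 4 of the 28 neighbours, Bnipl, Prune1, Tars2 and Rprd2, an arrangement that 6.19% of all genes showed. Tars2 and Rprd2 lie beside Ecm1, and Bnipl and Prune1 are the farthest of the 4 from the pair. Other neighbours went the opposite way: for Gm16740, Mindy1 and Ctss, all KO-Saline libraries were above all WT-Saline libraries. The share of all genes with this opposite arrangement was not computed. Exons of Gm16740, Mindy1 and Prune1 overlap exons on the other strand, so their values are uncertain. The saline log2 difference of Ctss was 1.49 ± 0.51 (limma, adjusted p = 0.522). Counts of called neighbours were also 0 between genotypes without KO-LPS replicate 1.

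**Figure D3:**
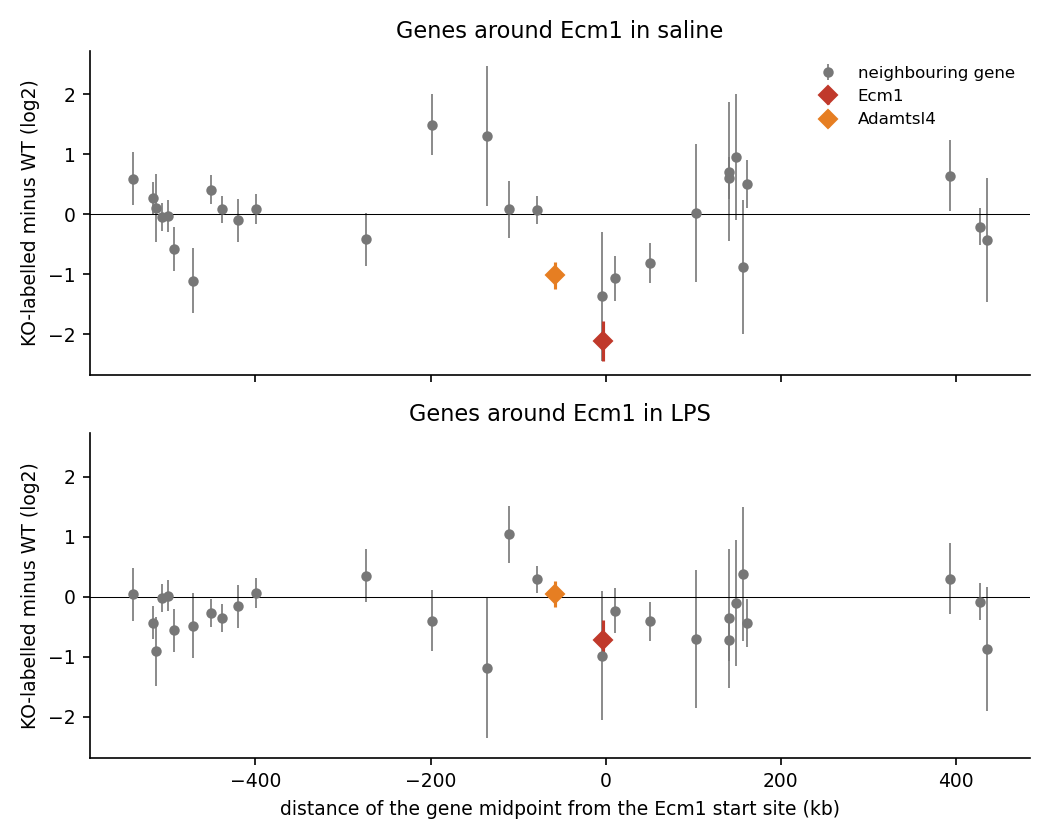
Difference between KO-labelled and WT libraries (log2, with SE bars) in saline (top) and LPS (bottom) for the 28 measured genes within 500 kb (grey) and for Ecm1 and Adamtsl4 (diamonds), by the distance of the gene midpoint from the Ecm1 start site in kb. In saline Ecm1 is the lowest point at -2.11 and Adamtsl4 lies at -1.02, while the median of the neighbours is 0.08.

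Upstream of Ecm1, Tars2 and Rprd2 are on the same strand, so that Rprd2, Tars2, Ecm1 and Adamtsl4 follow one another in the direction of transcription. The gaps are 134 bases between Rprd2 and Tars2 and 406 bases between Tars2 and Ecm1. Tars2, which encodes the mitochondrial threonyl-tRNA synthetase, was at 138.0, 97.2 and 238.4 CPM in WT-Saline and 60.4, 69.4 and 80.3 CPM in KO-Saline. The KO-Saline libraries were lower without overlap, but the log2 difference of -1.07 ± 0.38 did not pass the threshold (limma, adjusted p = 0.562). Rprd2, a protein that binds the tail of RNA polymerase II, was at 113.8, 122.6 and 162.0 CPM in WT-Saline and 78.7, 62.9 and 82.7 CPM in KO-Saline. Its log2 difference was -0.81 ± 0.33 (limma, adjusted p = 0.650). In LPS the groups overlapped for both, with log2 differences of -0.23 ± 0.38 for Tars2 and -0.41 ± 0.33 for Rprd2.

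Mcl1, an anti-apoptotic protein that neutrophils need to survive, is 13024 bases beyond the Adamtsl4 end, on the plus strand. It was at 1515.3, 1566.3 and 1292.6 CPM in WT-Saline and 1624.7, 1564.3 and 1396.1 CPM in KO-Saline, which overlapped (log2 difference 0.07 ± 0.23, limma adjusted p = 0.981). With LPS, Mcl1 fell by 0.78 ± 0.16 log2 averaged over genotypes (limma, adjusted p = 0.00105). KO-LPS replicate 1 was at 1547.3 CPM, in the range of the saline libraries, and replicates 2 and 3 were at 676.0 and 844.8 CPM. Without replicate 1 the averaged log2 difference was -0.95.

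**Figure D4:**
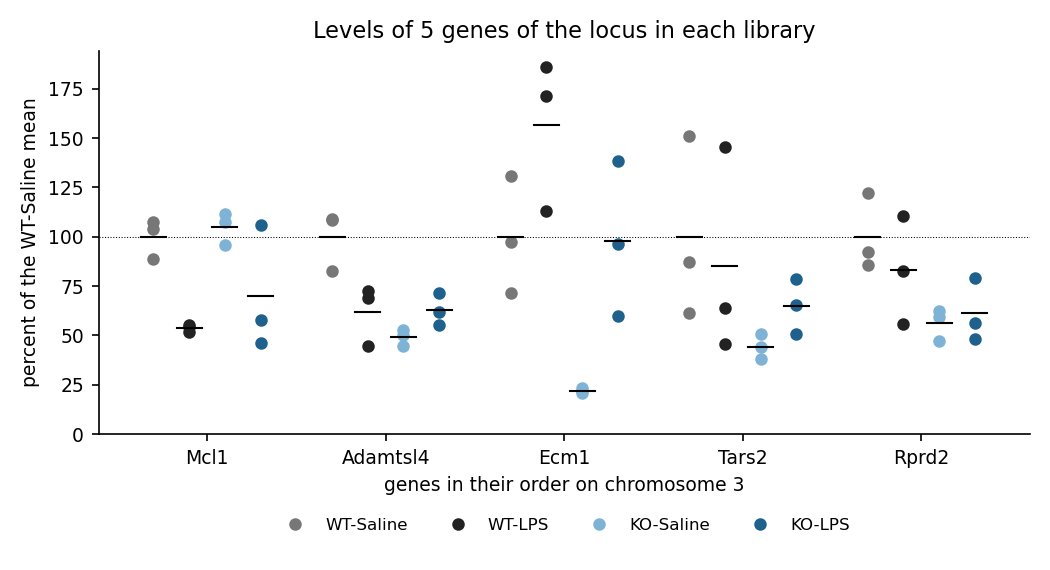
Levels of 5 genes of the locus in their order on chromosome 3, in percent of each gene's WT-Saline mean, with 1 point per library and a line at each group mean. In KO-Saline the means are 104.8% for Mcl1, 49.1% for Adamtsl4, 22.0% for Ecm1, 44.3% for Tars2 and 56.3% for Rprd2.

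In percent of its own WT-Saline mean, the KO-Saline level was 22.0 ± 1.3% for Ecm1 (SD, n = 3), 44.3 ± 6.3% for Tars2, 49.1 ± 4.2% for Adamtsl4 and 56.3 ± 7.9% for Rprd2, and 104.8 ± 8.1% for Mcl1. In KO-LPS, Ecm1 was at 98.1 ± 39.4%, Tars2 at 65.0 ± 14.1%, Adamtsl4 at 63.1 ± 8.1% and Rprd2 at 61.2 ± 16.0%. The other near genes had few reads or no such difference. Ensa, an inhibitor of the phosphatase PP2A, had a saline log2 difference of 0.08 ± 0.47 (limma, adjusted p = 0.984). Golph3l and Prpf3 had 2.3 and 1.2 reads per library on average and did not pass the threshold between genotypes in saline (limma, adjusted p = 0.894 and 0.998). Mir7014, within Ecm1, had 4 reads over the WT-Saline libraries, 5 over WT-LPS, 0 over KO-Saline and 1 over KO-LPS, and reads of its Ecm1 exon and of the microRNA cannot be told apart.

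With LPS, averaged over genotypes, 4 of the 28 neighbours rose and 2 fell, beside a share of 16.9% called among all genes. The 2 that fell were Mcl1 and Bnipl (-0.96 ± 0.25 log2, limma, adjusted p = 0.00776). The 4 that rose, named after their values were seen, were Ctss, C920021L13Rik, BC028528 and Car14. Ctss encodes cathepsin S, a lysosomal protease that can cut matrix proteins, and its level went from 11.6 ± 7.58 to 114 ± 31.7 CPM (SD, n = 3) in WT and from 31.9 ± 16.0 to 83.5 ± 9.98 CPM in KO-labelled libraries. The averaged Ctss rise was 2.40 ± 0.36 log2 (limma, adjusted p = 2e-05). Car14 was at an adjusted p of 0.0496 by limma, and lost the call when any library other than WT-Saline replicate 3, KO-Saline replicate 1 or KO-LPS replicate 1 was left out (up to 0.168). Without KO-LPS replicate 1, Setdb1 was also called, making 5 higher and 2 lower. Exons of Car14, Setdb1, C920021L13Rik and BC028528 overlap exons on the other strand, so their values are uncertain.

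The gene lists below hold the relatives and partners of the pair, and their LPS response averaged over genotypes is described by counts beside the share of 16.9% for all genes and the median of 0.09 log2. Between genotypes, 0 genes of any of the lists were called by limma in saline, in LPS or averaged, with at most 1 per list at an unadjusted p under 0.05. Of 25 other ADAMTS and ADAMTS-like genes, 4 were measured and 0 were called, with 0 at an unadjusted p under 0.05 and a median of 0.09. The most abundant of the 4 were Adamts7, a metalloprotease, at 0.38 ± 0.23 log2 (limma, adjusted p = 0.279, with exons that overlap Tbc1d2b on the other strand), and Papln, at 0.03 ± 0.34 (limma, adjusted p = 0.965).

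Of 23 genes of microfibrils, fibulins and the storage of latent TGF-beta, 10 were measured, 2 rose, 0 fell and 8 did not pass. Their median was 0.61 log2, or 0.25 with groups at 0 reads put at the floor of 3 reads. Emilin1, an elastic fibre glycoprotein, had 1 read in the saline libraries and 74 in the LPS libraries, a ratio of 73.9 (95% counting interval 12.9 to 2960, limma adjusted p = 0.00201). Loxl1, a lysyl oxidase that crosslinks elastin, had 4 and 31 reads, a ratio of 7.74 (2.74 to 30.2, limma adjusted p = 0.0313). The Loxl1 call was lost when replicate 1 or 2 of WT-Saline, 1 or 3 of WT-LPS, 2 or 3 of KO-Saline or 2 or 3 of KO-LPS was left out, with a limma adjusted p up to 0.109. Without KO-LPS replicate 1 the counts were 3 higher and 2 lower, Loxl3 being added among the higher genes and Emilin2 and Nrros being the lower ones.

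Of 29 genes of TGF-beta ligands, activation and signalling, 22 were measured, 1 rose, 3 fell and 18 did not pass, with a median of 0.02. Itgb1, the integrin beta 1 chain, rose by 1.68 ± 0.33 log2 (limma, adjusted p = 0.000452). The receptor Tgfbr2 fell by 0.90 ± 0.20 (limma, adjusted p = 0.00179) and the signal transducer Smad3 fell by 0.84 ± 0.17 (limma, adjusted p = 0.000654). The ligand Tgfb1 fell by 0.83 ± 0.26 (limma, adjusted p = 0.0286), from 195 ± 14.2 to 110 ± 22.2 CPM (SD, n = 3) in WT and from 162 ± 12.7 to 109 ± 70.0 CPM in KO-labelled libraries. This call was lost when replicate 1 or 2 of WT-Saline, of WT-LPS or of KO-Saline, or replicate 3 of KO-LPS, was left out, with a limma adjusted p up to 0.119. Without KO-LPS replicate 1 the counts were 4 higher and 3 lower, with Itgav, Thbs1 and Acvrl1 added among the higher genes.

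Of 24 matrix metalloproteinases and their inhibitors, 13 were measured, 5 rose, 0 fell and 8 did not pass, with a median of 0.79. Mmp8, the neutrophil collagenase, went from 284 ± 88.1 to 1270 ± 84.2 CPM (SD, n = 3) in WT and from 389 ± 17.4 to 1250 ± 737 CPM in KO-labelled libraries, a rise of 1.81 ± 0.24 log2 (limma, adjusted p = 3.68e-06). In KO-LPS, Mmp8 was at 400.2 CPM in replicate 1 and at 1672.8 and 1681.0 CPM in replicates 2 and 3. Mmp25, a membrane-bound metalloproteinase of leukocytes, rose by 1.74 ± 0.21 (limma, adjusted p = 9.01e-07). Mmp28 and Mmp19 rose too, by 2.61 ± 0.53 and 1.37 ± 0.33, but their exons overlap genes on the other strand. Without KO-LPS replicate 1, Mmp2 was also called and was lower. Of 6 proteins described as partners of ECM1, 3 were measured and 2 rose, with a median of 1.34. Mmp9, the gelatinase that ECM1 inhibits, rose by 0.73 ± 0.16 log2 (limma, adjusted p = 0.00166), and Plscr1, a phospholipid scramblase, by 1.34 ± 0.31 (limma, adjusted p = 0.00283). The third, the integrin chain Itgav, had 1.42 ± 0.52 (limma, adjusted p = 0.0578) and was called without KO-LPS replicate 1.

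The genes whose log2 values over the 12 libraries were most like those of Ecm1, among 4380 genes at or above the median level, were Ctsz, Coa5, Plekho2, Tpm3 and Bud23, with Pearson correlations of 0.950, 0.914, 0.903, 0.899 and 0.883. All had their lowest group mean in KO-Saline and their highest in WT-LPS, as Ecm1 did, over a narrower range. Coa5, an assembly factor of cytochrome c oxidase, was at 292 ± 20.9 CPM (SD, n = 3) in WT-Saline and 390 ± 18.2 with LPS, and at 159 ± 33.4 in KO-Saline, against 298 ± 38.7 with LPS. Tpm3, a tropomyosin also on chromosome 3, was at 210 ± 35.2, 266 ± 33.2, 136 ± 34.2 and 241 ± 40.1 CPM in the same order. Exons of Ctsz and Bud23 overlap genes on the other strand. Adamtsl4 ranked 611th in likeness to Ecm1.

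The genes most like Adamtsl4 were Metrnl, Rprd2, Gpr183, Med13l and Atp1b4, with correlations of 0.903, 0.814, 0.813, 0.803 and 0.797. Metrnl, a secreted protein, was at 144 ± 9.51 CPM (SD, n = 3) in WT-Saline and 105 ± 19.0 with LPS, and at 88.5 ± 5.64 in KO-Saline and 102 ± 17.0 with LPS. Gpr183, an oxysterol receptor that guides leukocyte migration, was at 162 ± 1.63, 108 ± 6.49, 84.9 ± 17.3 and 104 ± 14.7 CPM in the same order. Both had the order of group means of Adamtsl4 except between the LPS groups. Rprd2, of the same locus, was 2nd in this ranking, and Ecm1 ranked 162nd. These correlations describe 12 libraries that share groups and scaling, and no test was made of them.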

How the data were processed

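RNA sequencing was done on 12 libraries of blood neutrophils, in 4 groups of 3, grouped by the labels. Per the labels' protocols, a miRNeasy micro kit gave the RNA and a Tecan Universal Plus kit with mouse probes the libraries. The authors deposited values on a log2 scale for 9374 genes listed by NCBI Gene ID. The deposited log2 values have the form log2 CPM with 0.5 reads added, since undoing it gave whole reads (tolerance 0.0001) for 100.0% of values in each column. Per the submitters' processing notes the build was mm10. Aligner, counter, annotation, strand setting and gene filter: not given in the sources used here. Reads recovered this way gave the depth, 399702 to 526757 per library with a median of 11.33 reads per gene, and 0 reads in 6.93% to 19.19% of genes. A count of 0 allowed up to 5.58 to 8.00 CPM (a floor of 3 reads). Intervals and floors cover counting error only.

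The log2 values were fitted with limma 3.58.1 in R 4.3.3: 4 group means over all 12 libraries, moderated statistics with a mean-variance trend, two-sided, Benjamini-Hochberg adjustment over all 9374 genes, calls at an adjusted p under 0.05. The procedure was tested on simulated data. ± after a log2 difference is its standard error. Symbols were found for 9372 genes and coordinates in GENCODE M21 for 9299, both members among them, and promoters came from RefSeq. The members and lists were chosen with earlier results of these data known. Named beside them were the 5 genes most correlated with each member, the 3 nearest measured genes on each side, up to 4 called genes of largest change per list (the 2 most abundant where none was called), and Hmgb1. Lists are described by counts and medians. Alternatives were other scalings, reads added, variance settings, a filter, the 2 groups alone, a replicate block, a wider window and leaving out each library. Counts without KO-LPS replicate 1 in lists and among neighbours were added after seeing the data. All 12 columns were used.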

Additional observations from a re-analysis of the deposited data

Results flagged for a closer look

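The Adamtsl4 values of LPS and saline libraries differed in opposite directions in the genotypes. In WT libraries the log2 difference between LPS and saline was -0.71 ± 0.22 (SE), and each of the 3 LPS libraries was below each of the 3 saline libraries. In KO-labelled libraries it was 0.36 ± 0.22, and each LPS library was above each saline library. Because this difference between responses rests on the genotype differences that chose the gene, it was not tested.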

How the results depend on the processing

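Ecm1 kept its averaged LPS rise under every alternative run (log2 differences from 1.20 to 1.50, limma adjusted p up to 0.0158), and Adamtsl4 did not pass under any (-0.24 to -0.06). Median centring and quantile normalization moved the median of all genes from 0.089 to 0.025 and -0.011. The saline differences kept their sign (Ecm1 -2.32 to -1.89, Adamtsl4 -1.15 to -0.94). The LPS genotype difference was -1.01 to -0.41 for Ecm1 and changed sign for Adamtsl4 (-0.18 to 0.18). Without a mean-variance trend, 944 genes were called with LPS and 0 between genotypes in saline and averaged. In saline the robust prior called 5, 2 added reads 4 and the 2 groups alone 22. The filter at a mean log2 value of 4 left 0 called when averaged. The replicate block called 2 averaged, 1563 with LPS, 1 in saline and 0 in LPS between genotypes, and changed no other of these calls. No pairing by replicate number was detected. Correlations of deviations from the group means were -0.105 to 0.064 for same-numbered libraries and -0.101 to 0.091 for differently numbered ones. This does not exclude a pairing. With each library left out in turn, calls ranged from 1161 to 2228 with LPS, 0 to 31 in saline, 0 to 2 in LPS between genotypes and 0 to 11 averaged. The 31 and 11 came without KO-LPS replicate 1. The cause of these shifts was not tested. Called neighbours between genotypes were 0 within 1000 kb too (of 51). The median gene had 11.33 reads per library, so small changes of low genes were not detectable.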
